A study of Drosophila melanogaster with 8 samples.

Results

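The genes of the synaptic vesicle release machinery were examined for binding of Daughterless (Da) in the adult head of Drosophila melanogaster. They are Syn, Syt1, nSyb, Syx1A, Snap25, cpx, Rop, Csp, shi and comt, 10 of the 13945 protein-coding genes annotated on the chromosome arms. The rule that names them uses their role and no measured value, but the list was drawn up with earlier results of these data known. Peaks were assigned to a gene when their summit lay in the gene or within 5 kb of it. By this rule 20 of the 6649 sites of 3xFLAG-Da in the genome belonged to these genes.

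Chromatin was precipitated with the anti-FLAG antibody F1804 from heads of flies aged 1 to 3 days, males and females in about equal parts. In the 3xFLAG-Da line the endogenous Da, a basic helix-loop-helix transcription factor, carries the tag. The Control line, white*, is the background in which that line was made and has no FLAG sequence, so its precipitate (IP) shows what the antibody brings down without the tag. Each line gave 2 IP and 2 input libraries, 8 samples in all, and a peak list exists for each of the 4 IP libraries. Whole heads hold neurons, glia, eye, fat and muscle together, so a peak does not say in which cells the DNA was bound. The lists hold no RNA level, and the tissue was therefore not checked against marker genes.

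Neurotransmitter leaves a nerve terminal when a vesicle fuses with the plasma membrane. The vesicle protein nSyb (synaptobrevin) and the membrane proteins Syx1A (syntaxin) and Snap25 zip together into the SNARE complex that drives fusion. Rop, the fly Munc18, chaperones Syx1A, cpx (complexin) clamps the partly assembled complex, and Syt1 (synaptotagmin) is the calcium sensor that triggers release. Syn (synapsin) holds vesicles in reserve, Csp is a vesicle chaperone that keeps Snap25 folded, comt encodes NSF, the ATPase that takes spent SNARE complexes apart, and shi encodes dynamin, which pinches vesicles back off the membrane. E-proteins such as Da bind the E-box, CANNTG, as dimers.

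A site here is a stretch where the 3xFLAG-Da peaks of replicates 1 and 2 shared at least 1 bp and which no Control IP peak touched. Its summit is that of the peak that stands higher by fold in its own list, as a share of the peaks in that list, and fold is the enrichment of the fragment pileup at the summit over the local background as MACS2 gives it. Sites are ranked from 1 to 6649 by the mean of these shares over the replicates. Coordinates are those of Release 6 of the fly genome (BDGP6).

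The sequences below show E-boxes that lay within 50 bp of the summit of a site. They cover the promoters of these genes and the sites next to them that carried CAGCTG or CAGGTG. Left out are a CATATG 32 bp from the summit at promoter 3 of cpx and a CACTTG 23 bp from that at CG42795. Capitals mark the E-box, and all are written 5′ to 3′ on the plus strand. The first set spans 60 bases on each side of the summit at sites free of annotated untranslated exons.
shi promoter, chrX:15891946-15892066: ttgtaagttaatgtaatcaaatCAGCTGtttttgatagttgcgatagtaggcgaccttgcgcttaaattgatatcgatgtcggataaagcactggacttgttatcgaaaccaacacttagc
Syx1A promoter, chr3R:24105824-24105944: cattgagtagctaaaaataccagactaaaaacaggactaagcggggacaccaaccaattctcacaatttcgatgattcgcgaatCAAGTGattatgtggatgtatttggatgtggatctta
Csp upstream flank at Rich, chr3L:22262961-22263081: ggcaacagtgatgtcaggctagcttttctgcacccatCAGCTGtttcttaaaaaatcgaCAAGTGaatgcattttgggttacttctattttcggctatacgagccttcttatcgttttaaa
nSyb downstream flank at GC, chr3L:1629645-1629765: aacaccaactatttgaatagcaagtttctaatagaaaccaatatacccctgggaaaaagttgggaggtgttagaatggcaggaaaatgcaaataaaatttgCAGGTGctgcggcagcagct
Snap25 intron 5, chr3L:24231554-24231674: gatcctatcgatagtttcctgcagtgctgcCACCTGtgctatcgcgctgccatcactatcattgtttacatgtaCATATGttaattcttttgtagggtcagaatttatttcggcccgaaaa

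At the other sites the summit window reaches into an untranslated exon, and only 30 bases around the E-box are given.
Rop promoter, chr3L:4139143-4139172: aattttgctggcCAACTGgtcgatttaaac
cpx promoter 3, chr3R:4281989-4282018: aacacactagagCAAGTGcgtgtacataga
cpx promoter 5, chr3R:4291976-4292005: aacggttgcatcCACTTGggacggaaacga
Syt1 downstream flank at colt, chr2L:2770059-2770088: attatagcgacgCAGGTGtgagagcattcg
Syt1 downstream flank at Taf10, chr2L:2767919-2767948: acatatacacgcCAGCTGagataacaaatt
Syn downstream flank at CG42795, chr3R:10226507-10226536: gtgcggaactctCAGCTGtgtggatcgtga

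The shi promoter was the only promoter of a listed gene with a site at CAGCTG. Syx1A and cpx carried CACTTG, which reads CAAGTG on the other strand, and Rop carried CAGTTG, printed above as CAACTG. Promoter 3 of cpx also carried CATATG. No stretch of 75 bases, the read length, within the 24 regions shared by both 3xFLAG-Da lists at these genes occurred more than once on the chromosome arms (0 in each region).

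Every one of the 10 genes held at least 1 peak in each 3xFLAG-Da list. With peaks that touched a Control peak left out, all 10 still did. Of all protein-coding genes 76.2% had such a peak in replicate 1 and 67.6% in replicate 2. At these genes 34 peaks were called in 3xFLAG-Da IP replicate 1, 33 in 3xFLAG-Da IP replicate 2, 0 in Control IP replicate 1 and 5 in Control IP replicate 2. The means were 33.5 ± 0.707 and 2.5 ± 3.54 (SD, n = 2 libraries), a ratio of 13.4, and the groups did not overlap. For 2 libraries against 2, p was 0.333 by the two-sided exact permutation test, the smallest p that this design allows. Over the whole lists, which held 10915, 8745, 453 and 707 peaks in the same order, the ratio was 16.9.

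The libraries differed in depth. Mean coverage of the genome in fragments per position, as inferred from the peak values, was 9.36 for 3xFLAG-Da IP replicate 1, 4.17 for its replicate 2, 1.92 for Control IP replicate 1 and 1.72 for its replicate 2. The 3xFLAG-Da libraries were thus 2.17 to 5.44 times as deep. When the 3xFLAG-Da peaks at these genes were thinned to the depth of the shallower Control library, the ratio was 7.48, and without Control IP replicate 1 it was 6.70. No ratio over the whole lists was formed in these ways, so neither value is comparable with 16.9. Given the depths, a missing Control peak weighs less than a missing 3xFLAG-Da peak, above all at weak sites.

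**Figure D1:**
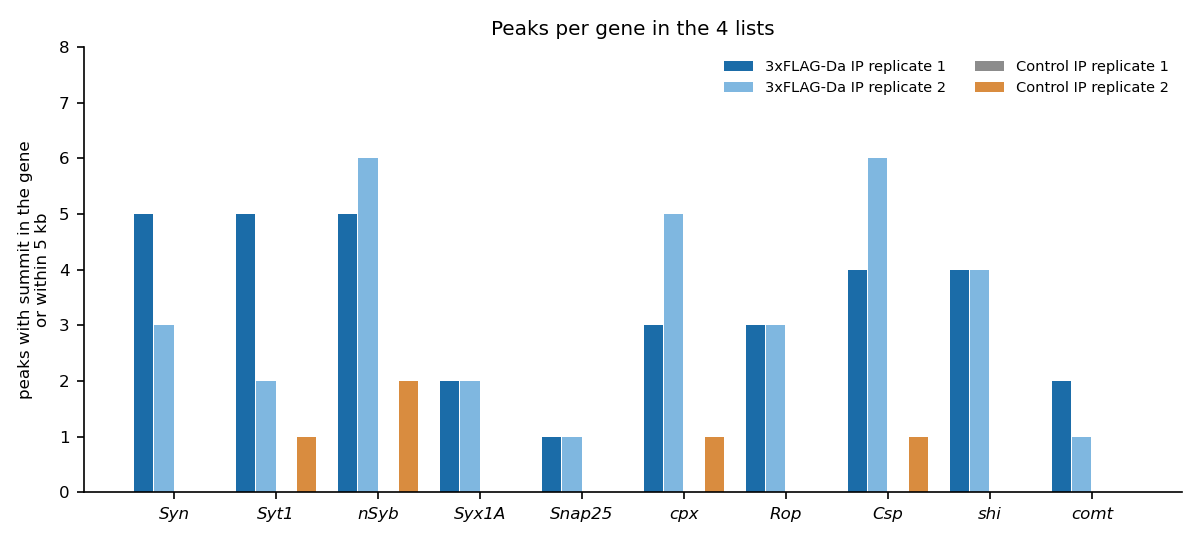
Number of peaks (vertical axis) with a summit in each gene or within 5 kb of it, 1 bar for each IP library. The list of 3xFLAG-Da IP replicate 2 reaches 6 peaks at nSyb and Csp, where replicate 1 has 5 and 4. Control IP replicate 2 has peaks at 4 genes, and Control IP replicate 1 has 0 at all 10.

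All 10 genes had a site in the gene or within 5 kb. The same held for 65.1% of all protein-coding genes and for 77.9% of the 5901 whose span lay in the range of the listed genes, from 2638 bp (Rop) to 225026 bp (Snap25). Most of these sites lay at the starts of neighbouring genes. Of the 20 sites, 16 (80.0%) were nearest to a start of another gene, against 68.0% of all gene and site pairs, and 15 of the 16 lay within 1000 bp of it. In all, 19 of the 20 sites lay within 1000 bp of some transcription start site (TSS), as did 4661 of the 6647 sites on the chromosome arms. Only 4 had their summit inside a listed gene. These fell in 3 of the 10 genes, against 19.5% of all protein-coding genes with a site inside the gene.

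A site within 1000 bp of a TSS of the listed gene itself was found at 4 of the 10 genes, Syx1A, Rop, shi and cpx. That share is close to the 38.8% of all protein-coding genes and below the 54.9% of genes in the same range of span. Of the 17 promoters of the 10 genes (TSS within 200 bp of each other counted as 1), 8 had a site within 1000 bp (47.1%), against 37.7% of the promoters of all protein-coding genes. The 8 promoters rest on 5 sites, since a site within 1000 bp of several promoters of a gene counted for each. The 17 promoters are 6 sets of starts at cpx, 2 at Syt1 and shi, and 1 at each of the other genes, so the promoters of cpx weigh most.

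**Figure D2:**
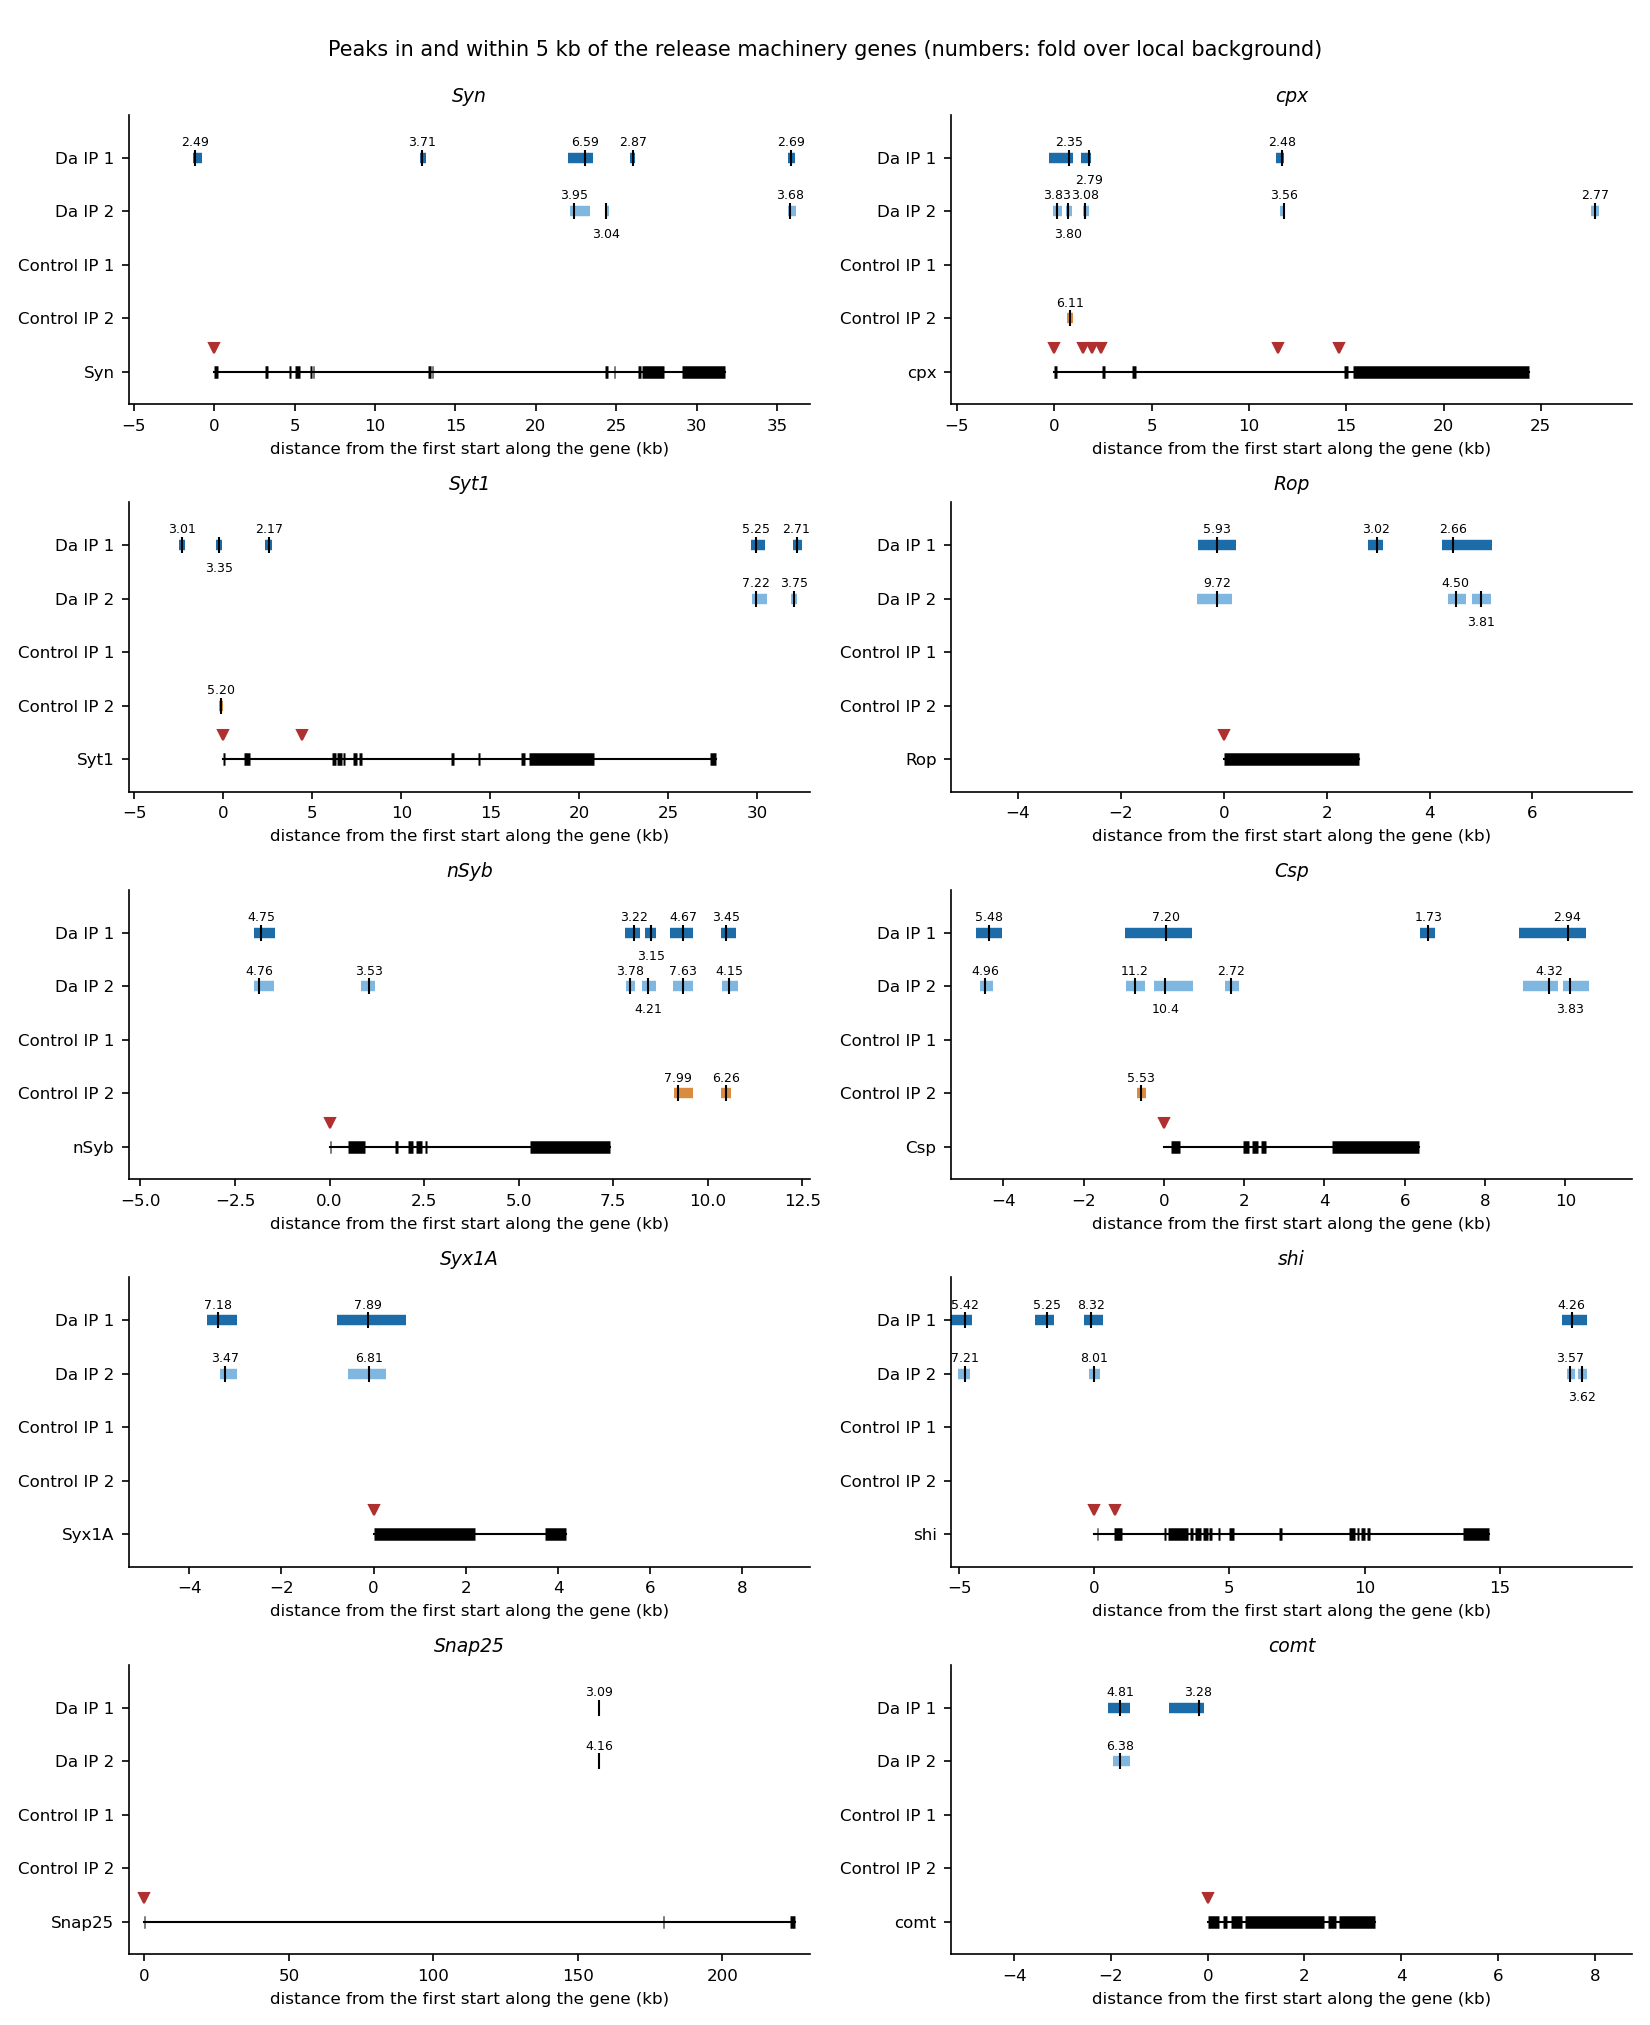
Peaks of the 4 IP lists along each gene, with distance from its first TSS in kb on the horizontal axis. Coloured bars are peaks, black ticks their summits and the numbers their fold, red triangles mark promoters, and black boxes are exons of the transcript with the longest span. At shi, Syx1A and Rop both 3xFLAG-Da lists have a peak at the start of the gene, while the peaks shared at Syt1 lie past its end.

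Dynamin had the strongest promoter site of the list. At shi the summit lay 110 bp upstream of the first TSS (chrX:15891717-15892431), in intergenic sequence. Replicate 1 of the 3xFLAG-Da IP had a fold of 8.32 and replicate 2 of 8.01, with 106 and 41 fragments over a local background of 11.9 and 4.24, and the Control IP lists held no peak within 5 kb of the gene. The site ranked 787 of 6649, and its CAGCTG lay 35 bp from the summit. The second promoter of shi starts 883 bp downstream of the same summit and had no peak of its own.

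Near shi, 2 further sites lay at other genes. The site 33 bp upstream of tay had folds of 5.42 and 7.21 (rank 1785), and that 101 bp upstream of CycD, which encodes a G1 cyclin, had 4.26 and 3.62 (rank 4630). A peak of fold 5.25 at CG15916 was called in 3xFLAG-Da IP replicate 1 only. Neither neighbouring site had an E-box within 50 bp of its summit, so the promoter of shi was the best ranked and the only one of the 3 with an E-box.

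At Syx1A the summit lay 121 bp upstream of the TSS (chr3R:24105061-24106555), within an intron of eIF4EHP, a gene for a cap-binding protein that represses translation. Replicate 1 of the 3xFLAG-Da IP had a fold of 7.89 and replicate 2 of 6.81, with a −log10 q of 56.1 and 25.9. The Control IP lists held no peak there, and the site ranked 1146. Its summits differed by 28 bp between replicates.

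The second site at Syx1A lay 167 bp upstream of a start of eIF4EHP and 3364 bp upstream of Syx1A. Fold was 7.18 in replicate 1, at 12.9% of that list from the top, and 3.47 in replicate 2, at 80.1%, so the site ranked 3583.

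At Rop the site lay between this gene and Ras64B (chr3L:4138749-4139520), which encodes a small GTPase of the Ras family. Their TSS lie 80 bp apart on opposite strands. The summit was 132 bp upstream of Rop and 52 bp downstream of the TSS of Ras64B, in an untranslated exon of that gene. Replicate 1 of the 3xFLAG-Da IP had a fold of 5.93 and replicate 2 of 9.72, with 126 and 69 fragments over 20.4 and 6.20, and the Control IP lists had no peak there. The summits of the replicates lay 7 bp apart, and the site ranked 1030. Which of the promoters is bound cannot be told apart at this distance.

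The downstream flank of Rop held a weaker site at ens, whose product binds microtubules. Folds were 2.66 and 4.50 (rank 5359). A peak at RfC4, a subunit of the clamp loader of DNA replication, had a fold of 3.02 in replicate 1 and was not called in replicate 2.

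The 6 promoters of cpx held the weakest promoter sites. At promoter 3 the summit lay 158 bp upstream of the TSS (chr3R:4281596-4282092), with folds of 2.79 and 3.08 and 40 and 21 fragments over 13.7 and 6.15. It ranked 6289, the poorest of the 20 sites. The peak of replicate 2 had its summit 194 bp away, 26 bp upstream of the nearest start of promoter 2. At promoter 5 the summit lay 284 bp downstream of the TSS (chr3R:4291597-4292079), with folds of 2.48 and 3.56 (rank 6195).

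At the first promoter of cpx both 3xFLAG-Da lists and Control IP replicate 2 had peaks. Fold was 2.35 in 3xFLAG-Da IP replicate 1, 3.83 in replicate 2, and 6.11 in Control IP replicate 2, whose summit lay 644 bp downstream of the nearest TSS with 21 fragments over 2.60. Folds are not comparable between lists of different depth. The region is not a site by the definition used. Promoter 4 had no summit of its own nearest to it, and promoter 6, 22 bp from Nepl11 on the other strand, had no peak in any list.

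The chance that a site would be called at the depth of the shallower Control library, from the pileup under a Poisson model of the replicate that gave the summit, was 0.125 at promoter 3 of cpx and 0.476 at promoter 5. It was 0.993 at shi, 0.992 at Syx1A and 1.000 at Rop. So a missing Control peak could be read at shi, Syx1A and Rop but not at cpx. A chance of 0.95 or more was reached by 7 of the 20 sites (37.8% over the genome), and 4 fell below 0.5. In both replicates it was reached by 3, those at the promoters of shi, Syx1A and Rop (21.7% over the genome).

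Csp had strong 3xFLAG-Da peaks at its promoter together with a Control peak. The shared region (chr3L:22266415-22268100) spans the TSS of Csp and that of CG11523, which lie 703 bp apart on opposite strands. Fold was 7.20 in 3xFLAG-Da IP replicate 1, with its summit 49 bp downstream of the Csp TSS. In replicate 2 a peak of fold 10.4 lay 39 bp downstream of the same TSS and another of fold 11.2 lay 18 bp into CG11523, where CAGCTG was found 11 bp from the summit. The Control IP replicate 2 peak, of fold 5.53, lay 141 bp upstream of CG11523 and 562 bp upstream of Csp, with 17 fragments over 2.26. This Control peak overlapped the 3xFLAG-Da replicate 1 peak and the replicate 2 peak at CG11523, but not the replicate 2 peak at the Csp TSS. The replicate 1 peak joins them into the shared region. Counted with Csp, 5 of the 10 genes had a shared region at the promoter, against 42.8% of all protein-coding genes.

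The sites beside Csp lay at Rich and Srpk79D, a kinase of splicing factors. At Rich, a gene for a partner of the Golgi GTPase Rab6, folds were 5.48 and 4.96 (rank 2762), and a CAGCTG and a CACTTG lay 20 and 2 bp from the summit. At Srpk79D they were 2.94 and 4.32 (rank 5179).

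Syt1 had no site at either of its promoters. At the first promoter 3xFLAG-Da IP replicate 1 had a peak of fold 3.35, 238 bp upstream of the TSS, and Control IP replicate 2 had one of fold 5.20, 167 bp upstream. Neither 3xFLAG-Da IP replicate 2 nor Control IP replicate 1 had a peak there, so the lists did not separate the lines. The second promoter had no peak in any list.

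Both sites assigned to Syt1 lay past its end at genes for other functions. At colt, a mitochondrial carnitine carrier, the summit was 12 bp inside the gene (chr2L:2769436-2770352), with folds of 5.25 and 7.22, rank 1859 and CAGGTG 20 bp away. At Taf10, a subunit of the general transcription factor TFIID, folds were 2.71 and 3.75 (rank 5874), and CAGCTG lay 4 bp from the summit. In replicate 1 the nearest TSS was that of Taf10b.

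nSyb likewise had no site at its own TSS. A single peak, of fold 3.53, lay 901 bp downstream of the nearest TSS in 3xFLAG-Da IP replicate 2 and had no partner in replicate 1. Upstream, a site 159 bp from Bgb, which encodes the partner of Runt proteins, had folds of 4.75 and 4.76 (rank 3268).

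Downstream of nSyb, 4 shared regions lay around GC, the vitamin K-dependent carboxylase gene, and CG13928. The 2 next to GC were sites, with folds of 3.22 and 3.78 at 404 bp and of 3.15 and 4.21 at 33 bp upstream of its TSS. The 2 next to CG13928, with folds of 4.67 and 7.63 and of 3.45 and 4.15, overlapped Control IP replicate 2 peaks of fold 7.99 and 6.26. The nSyb interval thus held 2 of the 5 Control peaks found at the listed genes.

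Control IP replicate 2 had peaks within 5 kb of 4 of the 10 genes, Syt1, nSyb, cpx and Csp, against 11.6% of all protein-coding genes, and Control IP replicate 1 had peaks at 0 of 10, against 8.01%. At 3 of the 4 genes, Syt1, cpx and Csp, the Control peak lay within 1000 bp of a promoter of the listed gene. All 5 Control peaks overlapped a 3xFLAG-Da peak. The shares of all genes with a Control peak at a promoter, and of all Control peaks with such an overlap, were not counted. These counts are therefore not read as traits of the listed genes. Of the 24 shared regions at these genes 4 overlapped a Control peak, and over the genome 8.12% of shared regions did. Each of these peaks came from the same library, so no spread over Control libraries can be given for them.

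Syn had a site inside the gene, in intron 8 (chr3R:10212716-10214270), 23.1 kb from its TSS. Timp, which encodes an inhibitor of metalloproteases, is nested in Syn, and the summit lay 735 bp upstream of the Timp TSS. Folds were 6.59 and 3.95 (rank 3184). The replicates placed the summit 668 bp apart, and that of replicate 2 lay 67 bp upstream of Timp. No E-box was found within 50 bp of the summit.

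The promoter of Syn had no peak within 1000 bp in any list. 3xFLAG-Da IP replicate 1 had further peaks of fold 2.49 at CG12814, 3.71 in intron 6 and 2.87 in intron 10, and replicate 2 had 1 of fold 3.04 at exon 9. None had a partner in the other replicate. The second site, at CG42795 past the end of Syn, had folds of 2.69 and 3.68 (rank 5960), with CAGCTG 8 bp and CACTTG 23 bp from the summit.

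Snap25, the longest gene of the list, had 1 site and no other peak. It lay in intron 5 (chr3L:24231375-24231742), 157 kb downstream of the TSS and 59250 bp from the nearest annotated TSS. Replicate 1 of the 3xFLAG-Da IP had a fold of 3.09 and replicate 2 of 4.16, with 31 and 22 fragments over 9.36 and 4.53, and the site ranked 5134. The summits lay 105 bp apart. CAGGTG, printed above as CACCTG, and CATATG lay 27 and 17 bp from the summit. The interval of Snap25 held 0.0425 sites per 10 kb, against 0.894 over the intervals of the other 9 genes and 0.496 over the chromosome arms.

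comt had a site only at mew, which encodes an integrin alpha subunit. The summit lay 23 bp upstream of mew and 1815 bp upstream of comt (chrX:13256963-13257420), with folds of 4.81 and 6.38 and rank 2384. At the promoter of comt itself 3xFLAG-Da IP replicate 1 had a peak of fold 3.28, 189 bp upstream of the TSS, and replicate 2 had none. The TSS of comt lies 526 bp from that of CG15742 and 531 bp from another start of mew, each on the other strand.

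Some peaks had no partner in the other replicate. Of the 34 peaks in 3xFLAG-Da IP replicate 1, 10 had no overlap in replicate 2, and of the 33 in replicate 2, 4 had none in replicate 1. These lists gave 24 shared regions at the listed genes. Over the genome, 10915 and 8745 peaks gave 7237. Peaks without a partner were not counted over the whole lists, so the agreement of replicates at these genes is not compared with them. The farthest site inside the 5 kb limit was that at tay, 4772 bp from shi, and the nearest outside was at aph-1, 6246 bp from Syt1, with folds of 5.50 and 3.85.

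The sites of the listed genes ranked below the middle of all sites. Their median rank was 4106, where the middle of all sites is 3325. Of the 20 sites, 9 ranked from 5028 to 6289 of 6649, and 3 ranked from 787 to 1146. The 5 sites at promoters of the listed genes had a median rank of 1146 and the other 15 had 4630. In 3xFLAG-Da IP replicate 1 the median fold stood at 39.6% of the list from the top, against 38.8% for all sites, and in replicate 2 at 58.9%, against 45.7%. Promoter sites were therefore either strong, as at shi, Rop and Syx1A, or among the weakest, as at cpx.

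**Figure D3:**
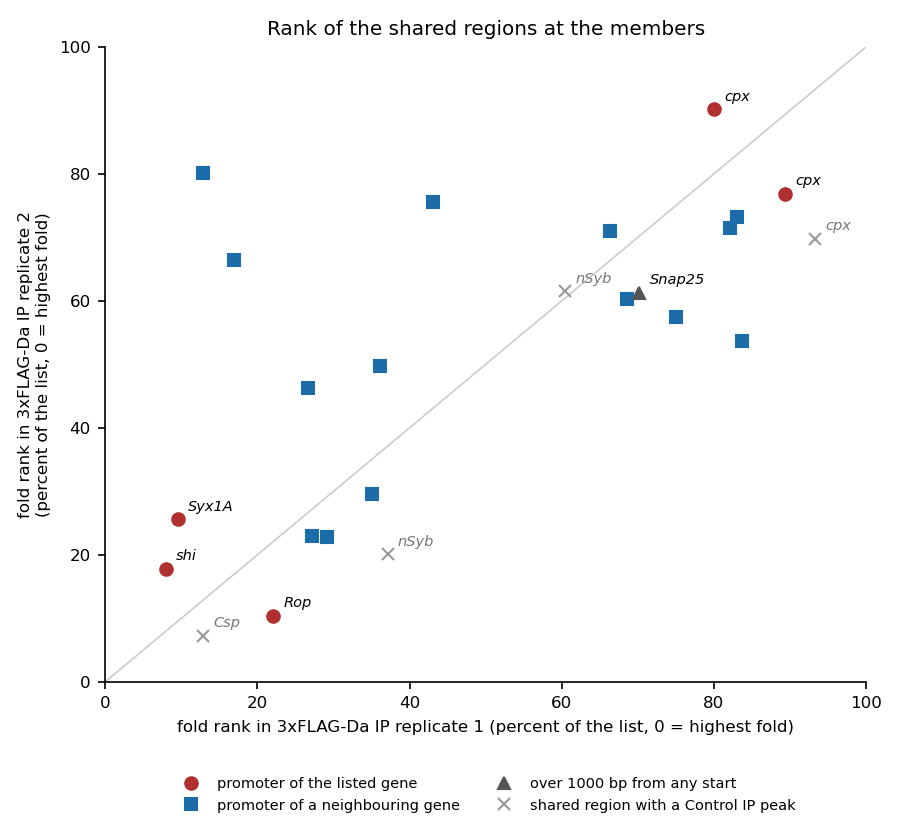
Position of each shared region by fold in the lists of 3xFLAG-Da IP replicate 1 (horizontal) and replicate 2 (vertical), in percent of the list with the highest fold at 0. Circles are sites at promoters of the listed genes, squares sites at promoters of neighbouring genes, the triangle the site in Snap25, and crosses regions with a Control peak. shi, Syx1A and Rop sit at 7.91% to 25.6% on both axes, and both cpx sites at 76.9% to 90.2%.

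E-boxes were then counted within 50 bp of the 20 summits, on both strands. An E-box of any of the 10 kinds was found at 12 sites, or 60.0% (95% exact interval 36.1 to 80.9%), against 51.9% of all sites and 38.4% of windows shifted by 250 bp to each side. CAGCTG was found at 4 sites (20%, 5.73 to 43.7%), those at shi, Rich, Taf10 and CG42795, against 14.1% of all sites and 4.35% of shifted windows. CAGGTG was found at 3 sites (15%, 3.21 to 37.9%), those at colt and GC and in Snap25, against 8.26% and 3.43%. CAGATG was found at 0 of 20, which allows a share of up to 16.8%, against 6.27% and 3.39%. All these intervals include the share of all sites and cover counting error only.

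All 5 sites at promoters of the listed genes had an E-box within 50 bp, against 48.1% of the 4661 sites within 1000 bp of any TSS, but only that of shi had any of these 3 kinds. The count rests on the window and on the summit used. Within 25 bp 1 of the 5 had an E-box, and around the summit of the other replicate 1 of the 5 had one within 50 bp. Over the 20 sites the share around the summit of the other replicate, an alternative chosen after seeing the data, was 35.0%, against 52.9% of all sites. Of the 40 shifted windows of the 20 sites, 11 held an E-box. TATCGATA is the DRE word of fly promoters and GAGAGAG the word of the GAGA factor. Within 50 bp each was found at 0 of 20 sites, against 3.26% and 2.89% of all sites. Within 100 bp TATCGATA was found at 2 of 20 (10.0%), against 5.76% of all sites, and GAGAGAG at 0, against 6.03%. A match of letters is a description of the sequence and not a measure of binding. The median GC content of the windows was 41.1%, and over all sites it was 46.5%.

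To set the list beside the rest of the pathway, 2 further lists were read. Of 18 other genes of fusion and priming, 13 (72.2%) had a site in the gene or within 5 kb and 8 (44.4%) at a promoter. Of 20 genes of vesicle recycling, 18 (90.0%) and 10 (50%) did. The promoter shares of all 3 lists lay between 38.8%, that of all protein-coding genes, and the 54.9% of genes in the range of span of the 10 genes.

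The best-ranked promoter sites among the fusion genes belonged to Snap29, Nsf2 and alphaSnap. Nsf2, the second NSF gene beside comt, had folds of 5.22 and 7.47 (rank 1804) and CAGCTG at its summit. alphaSnap, the adaptor that brings NSF to the SNARE complex, had 4.25 and 7.77 (rank 2289), without an E-box. The site of Snap29, a relative of Snap25, had 6.91 and 6.39 (rank 1513) and lay nearer to CG5554. So a shared site at the promoter was found for the partner and the relative of comt, and at comt itself a peak in replicate 1 only.

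Among the recycling genes lap, Hsc70-4 and Sap47 ranked best. lap, a clathrin adaptor of the AP180 family, had folds of 11.5 and 12.4 and ranked 156, ahead of every site at the 10 listed genes. Hsc70-4, the chaperone with which Csp works, had 8.65 and 8.30 (rank 700). Sap47, a synapse-associated protein, had 5.72 and 7.80 (rank 1465) with CAGCTG present 2 times, and each Control IP list had 2 peaks within 5 kb of it. Syngr, synaptogyrin of the vesicle membrane, had no peak in any of the 4 lists.

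**Figure D4:**
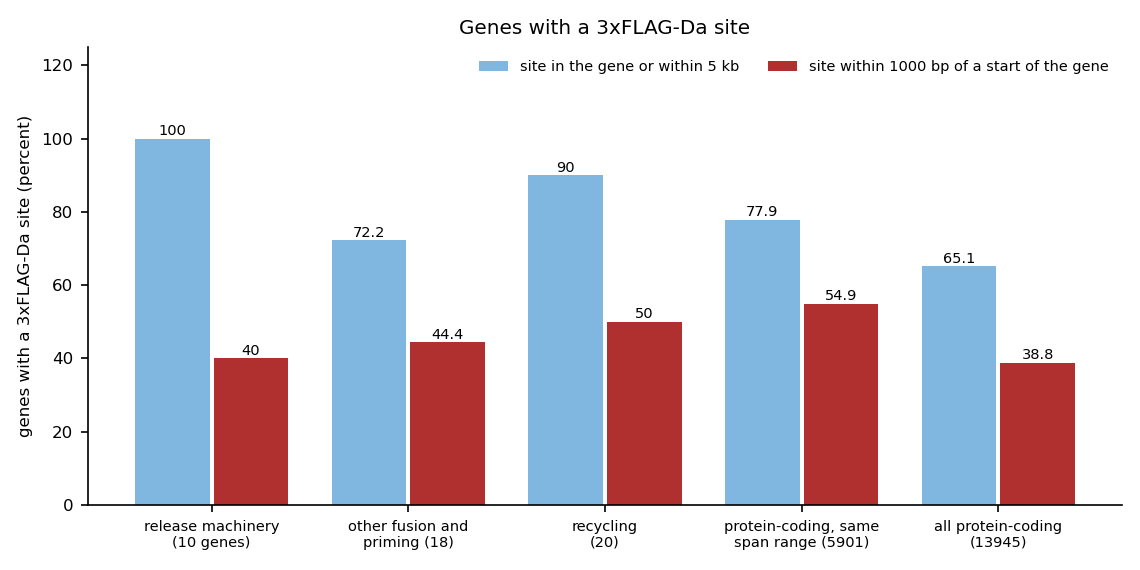
Share of genes, in percent, with a 3xFLAG-Da site in the gene or within 5 kb (blue) and within 1000 bp of a TSS of the gene (red), for the 10 release machinery genes, the 18 and 20 other pathway genes, genes in the same range of span and all protein-coding genes. The blue bar of the 10 genes reaches 100%, and their red bar, at 40%, is close to that of all protein-coding genes at 38.8%.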

How the data were processed

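Per the labels and methods, single-end reads of 75 bp from pooled heads were trimmed with BBDuk, mapped with Bowtie2 2.5.1 to BDGP6.32, filtered with SAMtools 1.12 (mapping quality 20, duplicates removed) and called with MACS2 2.2.7.1 at q 0.05, each IP library against its own input and without pooling. The deposited lists give for each peak the authors' fold ratio, −log10 p, −log10 q and a score. Fold was used to rank peaks within a list, −log10 q for a stricter threshold of 5, and the score was not used. The peak lists hold no read counts. Pileup and local background were recovered here from fold and −log10 p under the Poisson formula of MACS2 (99.3 to 100% of peaks within 0.002, and at the listed genes within 0.00014), and the commonest low background was read as coverage, which also scales with fragment length. Inputs entered only through peak calling.

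Genes were those of Ensembl release 115 (BDGP6.54), which shares coordinates with the Release 6 sequence: 99.8% of 30593 start codons read ATG. Introns are numbered in the transcript with the longest span. E-box distance runs to the fourth base of the E-box. Python 3.11.15, NumPy 2.4.6 and SciPy 1.17.1 were used, and the recovery and region steps were tested on simulated data. For peak numbers an exact permutation of the 4 libraries between groups was used. All else is description, with shares over all genes or sites beside it. All 10 genes and their shared regions are named. Of the other 2 lists the 3 genes with the best promoter site and the genes with no peak are named. The genes and lists were chosen with earlier results of these data known. Labels call the libraries replicates and the methods call them biological replicates, from pooled heads of 1 line each. Replicate numbers are shared between lines, and no source ties the same number to a shared batch.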

Additional observations from a re-analysis of the deposited data

How the results depend on the processing

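Alternatives covered the overlap of peaks, removal of Control regions, the q threshold, depth, each replicate left out, and the distances. The number of genes with a site, 10, stayed within 1.5 times in 10 of 12 alternatives. It was 5 when sites with a chance below 0.95 at the depth of the Control were left out, where 41.4% of all protein-coding genes had a site. With summits inside the gene alone it was 3, against 19.5%. With summits within 100 bp of each other Snap25 lost its site and 9 genes remained. The number of sites, 20, was 7 at Control depth, 4 inside the gene and 8 within 1 kb. The number of genes with a promoter site, 4, moved in none of 11 alternatives by over 1.5 times. Leaving out each replicate gave 10 to 10 genes with a site, 4 to 6 with a promoter site, 20 to 29 sites, and peak ratios of 6.70 to 13.6. Without 3xFLAG-Da IP replicate 1, Csp and nSyb gained a promoter site, without replicate 2 comt did, and without Control IP replicate 2 Csp did. The ratio without Control IP replicate 2 could not be formed, since the remaining Control list has 0 peaks at these genes. The share of sites with an E-box fell from 60.0% to 30% with 25 bp on each side, where it was 30.2% of all sites, and to 35.0% around the summit of the other replicate, an alternative chosen after seeing the data, where it was 52.9% of all sites. With the replicate block, in which labels were exchanged only within a replicate number, the ratio was 13.4 with p = 0.50 (exact permutation test, the smallest possible). Peak lists give no value where no peak was called, and depth limits above all the reading of the Control libraries.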
